A study of Mus musculus with 21 samples.

Results

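The genes described are 10 genes of serotonin and lactogen biology in mouse pancreatic β-cells, taken by symbol from an expression table of 21913 genes. They are Tph1, Tph2, Ddc and Slc18a2, which make and package serotonin, Htr1d and Htr2b, which encode serotonin receptors, Prlr and Ghr, which encode the prolactin and growth hormone receptors, and Cish and Socs2, which these receptors switch on. All 10 were in the table, and 9 reached a mean of 1 on the linear scale across 18 libraries and were tested. Htr1d was not tested. RNA-seq was made from lineage-marked β-cells of male mice in 3 groups, 8 libraries labelled Ldb1-KO, 5 labelled Isl1-KO and 5 labelled WT. Ldb1-KO mice carried Ldb1L/L, and Isl1-KO mice carried Isl1L/L. LDB1 is an adaptor of LIM-domain transcription factors, and ISL1 is one of those factors. Every mouse, WT included, also carried 2 copies of the Rosa26LsLeYFP reporter and MIP-CreERTm, a tamoxifen-switched Cre recombinase under an insulin promoter, on a mixed SV/129 and C57Bl/6 background. Tamoxifen was gavaged 5 times from day 28 at 150 µg per g, and 5 times more from day 35, in Ldb1-KO and WT mice, whose cells were sorted at day 56. Isl1-KO mice had 100 µg per g from day 28 alone and were sorted at day 49, so genotype, age and dose cannot be told apart in the comparison of Isl1-KO with WT. Some MIP-CreERT transgenes are known to carry a human growth hormone sequence. The labels do not say whether this one does, and cells without the transgene were not analysed here, so the WT levels are those of cells with MIP-CreERTm.

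Serotonin is made from tryptophan by a hydroxylase, TPH1 outside the nervous system and TPH2 in neurons, and then by the decarboxylase DDC. In mouse β-cells Tph1 is known as one of the genes that respond most to placental lactogen, prolactin and growth hormone. These hormones act through PRLR and GHR on the kinase JAK2 and the transcription factor STAT5, which switches on feedback inhibitors such as CISH and SOCS2. In pregnant mice the pathway is known for the growth of the β-cell mass, in which serotonin acts through HTR2B.

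Values are log2(normalized value + 1), so a difference is a log2 change of the normalized value plus 1 and understates the change of weakly expressed genes. Genes were called at an adjusted p under 0.05 in limma over the 13501 genes tested, and SE is limma's standard error. Whether the libraries are separate mice is not stated in the labels, so p-values measure only the spread between libraries, which may be technical. The read depth is not given, but low values fell on regular steps. The value per read step was 0.714 in the deepest library and 1.45 in the shallowest. In the Ldb1-KO libraries Ldb1 averaged 6.40 ± 0.42 (SD, n = 8), against 7.51 ± 0.22 in WT (SD, n = 5), a difference of -1.11 (SE 0.18, limma adjusted p = 4.35e-05). Isl1 averaged 9.33 ± 0.26 in Isl1-KO, against 9.55 ± 0.11 in WT (SD, n = 5 each, limma adjusted p = 0.431), a whole-gene value that does not resolve the deleted part. In Ldb1-KO Isl1 averaged 10.56 ± 0.37 (SD, n = 8), 1.01 above WT (SE 0.15, limma adjusted p = 2.78e-05). All 9 β-cell markers looked up were present in every group, with summed normalized values of 214000 to 425000 in Ldb1-KO, 360000 to 551000 in Isl1-KO and 556000 to 683000 in WT. Of the 9, 8 fell in Ldb1-KO with a median difference of -2.95, among them the insulin gene Ins1 at -2.83 (SE 0.36) and the insulin gene activators Mafa at -4.94 (SE 0.53) and Pdx1 at -2.02 (SE 0.13). In Isl1-KO 5 fell with a median of -1.10, among them Mafa at -2.51 (SE 0.59) and Pdx1 at -1.22 (SE 0.14). Iapp, which encodes amylin, did not pass in either (limma adjusted p = 0.688 and 0.98). The WT median of Iapp lay at the top value that all libraries share, and each knockout group also reached that value. A rise of Iapp above WT could therefore hardly show, and its result is no test of a rise. Whether the falls of the β-cell markers have a part in the differences described below was not tested. WT replicate 1 stood apart in acinar genes, with a mean log2 value over 10 markers of 10.75 where the other WT libraries lay at 1.71 to 2.37.

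In Ldb1-KO cells 4 of the 9 tested genes rose against WT, namely Tph1, Tph2, Cish and Socs2, and 1 fell, namely Ghr, while Ddc, Slc18a2, Htr2b and Prlr did not pass. Over all genes tested, 21.7% were called in this comparison, 10.6% higher and 11.0% lower. In Isl1-KO cells Tph1 rose and Ghr fell against WT, and the other 7 did not pass, with 15.4% of all tested genes called, 7.02% higher and 8.39% lower. The comparisons share the WT libraries.

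**Figure D1:**
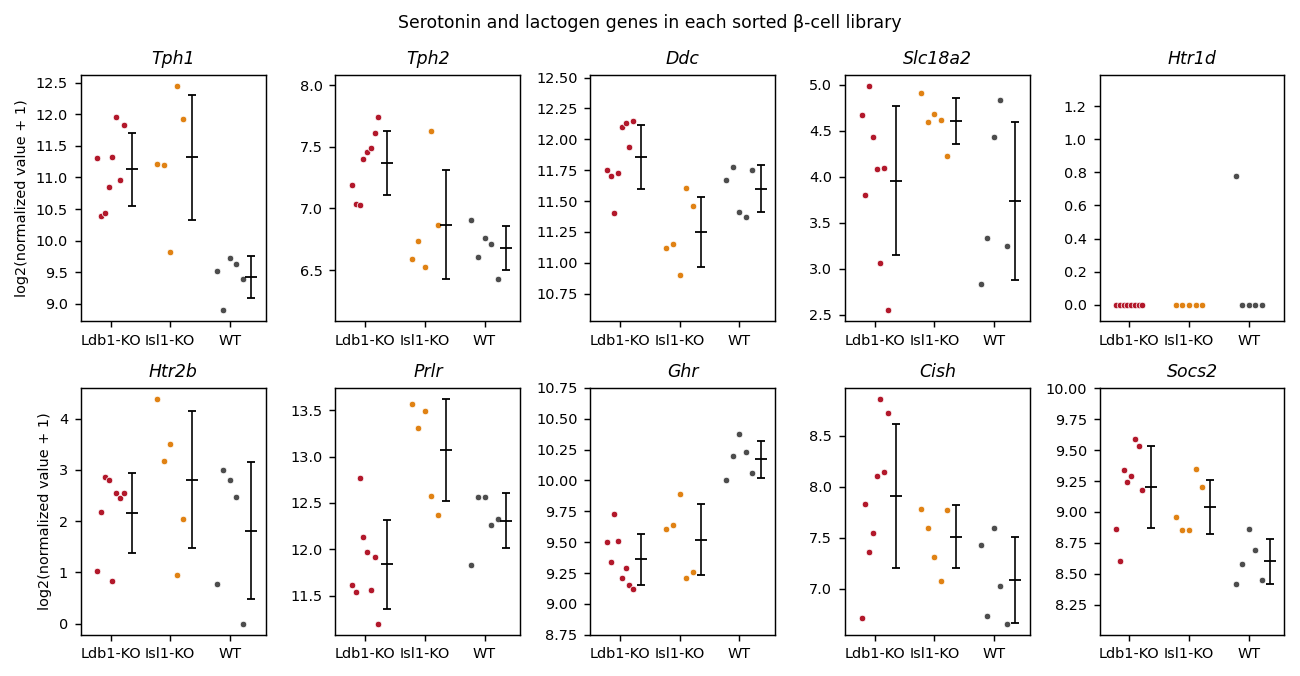
Level of each of the 10 genes on a log2(normalized value + 1) axis in every Ldb1-KO (n = 8), Isl1-KO (n = 5) and WT (n = 5) library. Points are libraries and bars are the group mean ± SD, left out for Htr1d, which lies at 0 in all libraries but WT replicate 1. Every Ldb1-KO and Isl1-KO library lies above all WT libraries for Tph1 and below all of them for Ghr.

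Tph1, the hydroxylase gene of tissues outside the nervous system, was higher in both knockouts. In the Ldb1-KO libraries its log2 level ranged from 10.39 to 11.95 with a median of 11.13. In Isl1-KO replicates 1 to 5 it was 11.21, 11.20, 9.82, 12.45 and 11.93, and in WT replicates 1 to 5 it was 9.52, 8.90, 9.73, 9.63 and 9.39. All 13 knockout libraries lay above all 5 WT libraries, with Isl1-KO replicate 3 closest to WT. Groups that did not overlap were found for 10.8% of all tested genes between Ldb1-KO and WT and for 10.7% between Isl1-KO and WT. The mean was 11.13 ± 0.58 in Ldb1-KO (SD, n = 8), against 9.43 ± 0.33 in WT (SD, n = 5), a difference of 1.70 or 3.24-fold (SE 0.36, limma adjusted p = 0.00191). In Isl1-KO it was 11.32 ± 0.99 (SD, n = 5), a difference from WT of 1.89 or 3.70-fold (SE 0.40, limma adjusted p = 0.00315). Leaving out any 1 library kept both calls, with differences of 1.56 to 1.80 and 1.61 to 2.26.

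Tph2, known as the neuronal hydroxylase gene, rose in Ldb1-KO. Its level there ranged from 7.03 to 7.74 with a median of 7.43, above every WT library, where replicates 1 to 5 had 6.91, 6.61, 6.76, 6.71 and 6.43. Ldb1-KO and WT did not overlap for 10.8% of all tested genes. The Tph2 difference was 0.69 or 1.61-fold (SE 0.17, limma adjusted p = 0.00416). Across Isl1-KO replicates 1 to 5 it was 6.59, 6.74, 6.53, 7.63 and 6.87, so that only replicate 4 lay above the whole WT range, and the difference of 0.19 from WT did not pass (95% interval -0.19 to 0.58, limma adjusted p = 0.541).

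Ddc, whose enzyme turns the product of both hydroxylases into serotonin, did not pass against WT in either knockout. It averaged 11.86 ± 0.26 in Ldb1-KO (SD, n = 8) and 11.25 ± 0.28 in Isl1-KO (SD, n = 5), against 11.60 ± 0.19 in WT (SD, n = 5). Both differences missed the threshold, at 0.26 for Ldb1-KO (limma adjusted p = 0.19) and -0.35 for Isl1-KO (limma adjusted p = 0.13), and each knockout overlapped WT. Isl1-KO replicates 4 and 5 were the highest of that group, at 11.61 and 11.46, so leaving them out was bound to lower its mean. Ddc was then 0.54 below WT (limma adjusted p = 0.0213), which is no test of a fall.

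Slc18a2 encodes VMAT2, the transporter that loads serotonin and other monoamines into vesicles. It was low and spread widely, from 2.55 to 4.99 in Ldb1-KO, from 4.23 to 4.91 in Isl1-KO and from 2.83 to 4.84 in WT, and all groups overlapped. Neither difference passed, at 0.22 in Ldb1-KO (95% interval -0.55 to 0.99) and 0.87 in Isl1-KO (95% interval 0.01 to 1.72, limma adjusted p = 0.164).

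Levels in bulk libraries do not separate more cells of a type from more RNA per cell, and markers of some other cells rose along with Tph1. Over 5 α-cell markers in the table, the summed normalized value was 10200 to 52800 in Ldb1-KO, 7420 to 14900 in Isl1-KO and 1940 to 3500 in WT, and its part in the Tph1 and Tph2 differences was not tested. Of 6 duct markers, 2 rose in Ldb1-KO and 3 in Isl1-KO, with summed normalized values of 842 to 1760 in Ldb1-KO, 1080 to 2140 in Isl1-KO and 758 to 998 in WT. The secreted phosphoprotein gene Spp1 rose by 3.13 in Ldb1-KO (SE 0.61) and 2.72 in Isl1-KO (SE 0.67), the chloride channel gene Cftr by 1.89 (SE 0.37) and 1.79 (SE 0.41), and the keratin gene Krt7 in Isl1-KO by 0.69 (SE 0.20). The somatostatin gene Sst, 1 of 4 markers of δ-, PP and ε-cells, rose by 1.27 in Ldb1-KO (SE 0.42, limma adjusted p = 0.039), with sums over the 4 of 930 to 2060 in Ldb1-KO, 419 to 2860 in Isl1-KO and 408 to 1020 in WT. The part of these cells too was not tested. Of 9 mast cell markers, 7 lay at 0 in all 18 libraries, among them the protease genes Cpa3, Cma1 and Mcpt4. The exceptions were Kit and Hdc, which are not restricted to mast cells. Kit rose by 1.57 in Ldb1-KO (SE 0.37) and 1.46 in Isl1-KO (SE 0.41), the second not without Isl1-KO replicate 2 or 3, and Hdc, which makes histamine, rose by 1.04 in Ldb1-KO (SE 0.28, limma adjusted p = 0.00933). Unlike Tph1, Hdc did not rise in Isl1-KO, where its difference of -0.75 did not pass (limma adjusted p = 0.113). Between the knockouts Hdc differed by 1.79 (limma adjusted p = 0.000179), a call lost without Isl1-KO replicates 1 to 3 together. Fev, which encodes a transcription factor of serotonin neurons in mice and stood among 6 glia and neuron markers in the table, averaged 2.25 ± 0.90 in Ldb1-KO (SD, n = 8) and 2.95 ± 1.16 in Isl1-KO (SD, n = 5), against 0.46 ± 0.64 in WT (SD, n = 5). It was called higher in both (limma adjusted p = 0.0108 and 0.00299), with differences of 1.78 in Ldb1-KO (SE 0.50) and 2.49 in Isl1-KO (SE 0.55), the first not with a pseudocount of 10. The noradrenaline enzyme gene Dbh lay at 0 in every library. Other lists did not rise. Of 5 endothelial markers Flt1 fell in Ldb1-KO, at -1.30 (SE 0.45, limma adjusted p = 0.0404). Of 5 mesenchyme markers Col3a1 fell in Isl1-KO, at -2.10 (SE 0.57, limma adjusted p = 0.0142). Both genes were low, with WT means of 1.68 and 2.30. No acinar, macrophage or leukocyte marker was called against WT.

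The serotonin receptor genes were at the lower end of detection. Htr1d, a Gi-coupled receptor gene, lay at 0 in all 8 Ldb1-KO and all 5 Isl1-KO libraries, and in WT it lay at 0.78 in replicate 1, 1 read step in the library with high acinar genes, and at 0 in the other 4. Htr2b, which encodes a Gq-coupled receptor, ranged from 0.83 to 2.85 in Ldb1-KO with a median of 2.50. In Isl1-KO replicates 1 to 5 it was 4.38, 3.18, 3.51, 0.94 and 2.04, and in WT replicates 1 to 5 it was 0.78, 3, 2.81, 2.46 and 0. All groups overlapped, and neither the Ldb1-KO difference of 0.34 (95% interval -0.83 to 1.52) nor the Isl1-KO difference of 1.00 (95% interval -0.30 to 2.31) passed. Isl1-KO replicates 4 and 5 were the lowest of that group, so leaving them out was bound to raise the difference. Htr2b was then 1.88 above WT (limma adjusted p = 0.0412), which is no test of a rise.

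Of 12 other serotonin receptor genes, 10 lay at 0 in all 18 libraries. Htr7 was above 0 in Isl1-KO libraries alone, with a mean of 0.52, and was not tested. Htr5b averaged 1.45 ± 1.07 in Ldb1-KO (SD, n = 8) and 0.94 ± 1.11 in Isl1-KO (SD, n = 5), and it was at 0 in all 5 WT libraries. Its Ldb1-KO call (limma adjusted p = 0.0493) held in 3 of the 13 fits that left out 1 library, with an adjusted p of up to 0.0947 in the others.

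Of 16 genes for the hydroxylase cofactor, tryptophan uptake, and the transport and breakdown of serotonin, 12 were tested. In Ldb1-KO 3 rose and 4 fell with a median difference of -0.21, where 10.6% of all tested genes rose and 11.0% fell. In Isl1-KO 2 rose and 3 fell with a median of -0.16, where 7.02% of all tested genes rose and 8.39% fell. The medians over all tested genes were -0.013 and -0.029. Gch1, which encodes the enzyme that starts synthesis of the hydroxylase cofactor tetrahydrobiopterin, fell in both. It averaged 8.32 ± 0.21 in Ldb1-KO (SD, n = 8) and 8.35 ± 0.27 in Isl1-KO (SD, n = 5), against 9.52 ± 0.42 in WT (SD, n = 5), with limma adjusted p of 3.22e-06 and 3.93e-05. Maob, which encodes a monoamine oxidase of the mitochondrial membrane, averaged 8.13 ± 0.15 in Ldb1-KO and 8.30 ± 0.36 in Isl1-KO, against 10.32 ± 0.14 in WT. Its difference from WT was -2.19 in Ldb1-KO (limma adjusted p = 1.68e-11) and -2.01 in Isl1-KO (limma adjusted p = 1.53e-09). Slc7a5 and Slc3a2, whose proteins together import tryptophan and other large amino acids, fell by 1.41 and 1.21 in Ldb1-KO. In Isl1-KO Slc3a2 fell by 0.69, though not without replicates 1 to 3 together, and Slc7a5 did not pass (limma adjusted p = 0.0685).

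Pts, the gene of a later step of cofactor synthesis, and Maoa, the other monoamine oxidase gene, each rose by 0.51 in Ldb1-KO. Neither rise was called by the test in the authors' deposited table. Slc18a1, which encodes the second vesicular monoamine transporter VMAT1, rose by 0.81 in Isl1-KO (SE 0.22, limma adjusted p = 0.0142), a call lost when replicates 4 and 5 were left out. Slc6a4, the gene of the plasma membrane serotonin transporter, lay at 0 in all 8 Ldb1-KO, in 4 of 5 Isl1-KO and in 4 of 5 WT libraries.

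**Figure D2:**
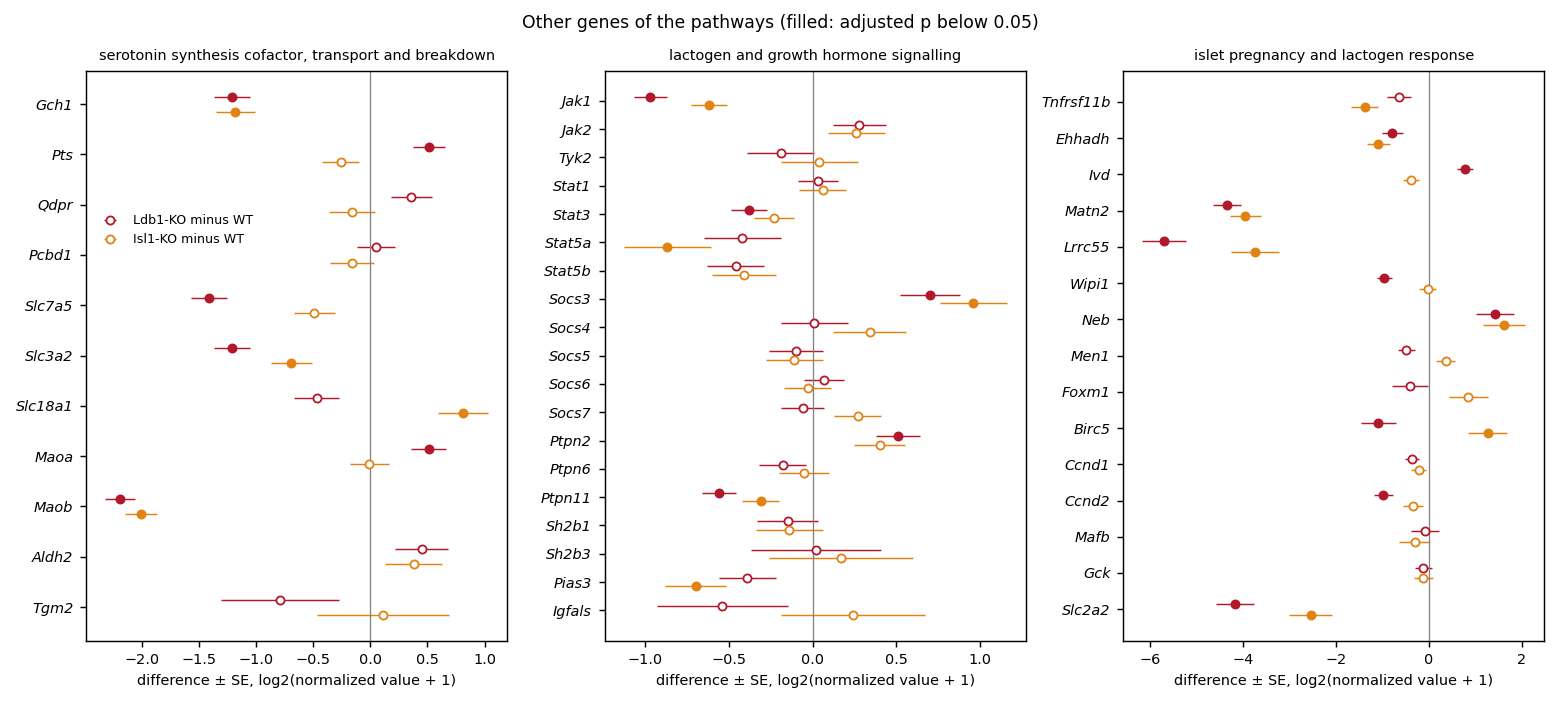
Difference from WT ± SE on the log2(normalized value + 1) scale for tested genes of 3 lists, Ldb1-KO and Isl1-KO side by side, with filled points for genes called in limma. Maob and Gch1 lie to the left of 0 in both knockouts, and Matn2, Lrrc55 and Slc2a2 lie furthest to the left in the right-hand panel.

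Of the receptor genes, Ghr fell in both knockouts and Prlr passed in neither comparison with WT. Prlr encodes the receptor of prolactin and placental lactogen, with isoforms that the table gives as 1 value. In Ldb1-KO its level ranged from 11.20 to 12.77 with a median of 11.77. In Isl1-KO replicates 1 to 5 it was 13.57, 13.31, 13.49, 12.58 and 12.37, and in WT replicates 1 to 5 it was 11.83, 12.56, 12.56, 12.26 and 12.33. Of the Ldb1-KO libraries 7 of 8 lay below the WT mean, with replicate 3 above all WT libraries, and all 5 Isl1-KO libraries lay above the WT mean. Both ranges overlapped WT. The Ldb1-KO difference of -0.47 did not pass (SE 0.23, limma adjusted p = 0.165), though without Ldb1-KO replicate 3 it was -0.60 and passed (limma adjusted p = 0.0355). The Isl1-KO difference of 0.76 was at the threshold and did not pass (SE 0.26, limma adjusted p = 0.0504). It passed without replicate 4 or replicate 5 of Isl1-KO, at 0.88 and 0.93. These were the lowest Isl1-KO libraries, and Ldb1-KO replicate 3 was the highest of its group. Each removal was thus bound to widen the difference, which is no test of a rise or fall. In the authors' deposited table both Prlr differences were called, with log2 fold changes of -0.58 and 0.68 and FDRs of 0.0191 and 0.0153.

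The knockouts themselves differed in Prlr. The mean was 11.84 ± 0.48 in Ldb1-KO (SD, n = 8), against 13.07 ± 0.55 in Isl1-KO (SD, n = 5), a difference of -1.23 (SE 0.23, limma adjusted p = 0.00138), and all 8 Ldb1-KO libraries lay below the Isl1-KO mean. In this comparison 13.3% of all tested genes were called, 6.96% higher and 6.31% lower in Ldb1-KO, and groups did not overlap for 4.78%. Prlr and Ddc were the 2 called among the 9, and the groups overlapped for both. Ddc was 0.61 higher in Ldb1-KO than in Isl1-KO (SE 0.14, limma adjusted p = 0.00452). Neither passed without Isl1-KO replicates 1 to 3, which leaves 2 libraries in that group. There, Prlr differed by -0.64 (limma adjusted p = 0.28) and Ddc by 0.33 (limma adjusted p = 0.411). Tph1 differed by -0.19 between the knockouts, with a 95% interval of -0.94 to 0.56. Tph2 was 0.50 higher in Ldb1-KO and missed the threshold (SE 0.17, limma adjusted p = 0.0519), and it passed without Isl1-KO replicate 4, at 0.69. That library had the highest Tph2 of Isl1-KO, so leaving it out was bound to widen the difference.

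**Figure D3:**
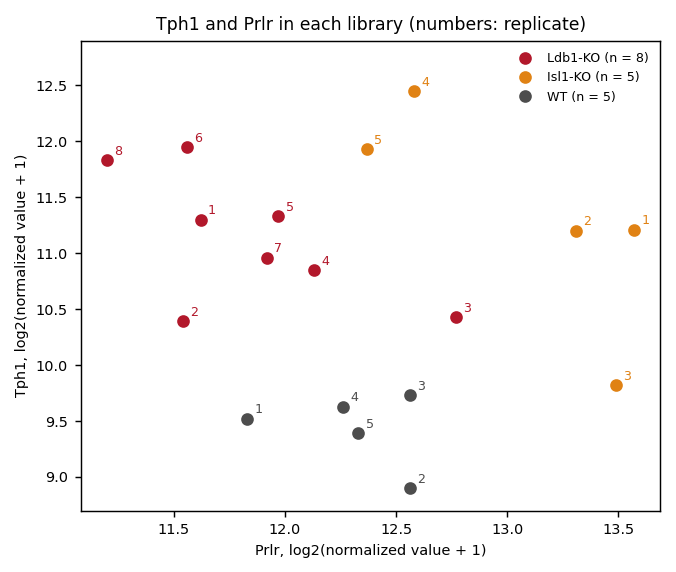
Tph1 against Prlr, both as log2(normalized value + 1), in each Ldb1-KO (n = 8), Isl1-KO (n = 5) and WT (n = 5) library, with replicate numbers. Isl1-KO replicates 4 and 5 have the highest Tph1 of their group and lower Prlr than replicates 1 to 3, and the WT libraries lie lowest on the Tph1 axis.

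Ghr, whose product is the growth hormone receptor, was lower in all knockout libraries. In Ldb1-KO its level ranged from 9.12 to 9.73 with a median of 9.31. Isl1-KO replicates 1 to 5 had 9.61, 9.64, 9.89, 9.21 and 9.26, and WT replicates 1 to 5 had 10.00, 10.20, 10.38, 10.23 and 10.06. All 13 knockout libraries lay below all 5 WT libraries. Among all tested genes, 10.8% did not overlap between Ldb1-KO and WT and 10.7% between Isl1-KO and WT. The Ghr difference was -0.82 in Ldb1-KO, 0.567-fold of WT (SE 0.13, limma adjusted p = 3.62e-05), and -0.65 in Isl1-KO, 0.636-fold of WT (SE 0.14, limma adjusted p = 0.00251). Leaving out any 1 library kept both calls, with differences of -0.87 to -0.77 and -0.75 to -0.57.

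Cish encodes a feedback inhibitor that STAT5 is known to switch on, and it was higher in Ldb1-KO. Its level there ranged from 6.71 to 8.86 with a median of 7.97. In Isl1-KO replicates 1 to 5 it was 7.78, 7.60, 7.31, 7.08 and 7.77, and in WT replicates 1 to 5 it was 7.43, 6.73, 7.60, 7.03 and 6.66. The groups overlapped, with Ldb1-KO replicates 1, 3 and 4 inside the WT range and 5 of 8 Ldb1-KO libraries above all of WT. The Ldb1-KO difference was 0.82 or 1.77-fold (SE 0.28, limma adjusted p = 0.0409). This call held in 5 of the 13 fits that left out 1 library. Leaving out Ldb1-KO replicate 2, 5, 6, 7 or 8, or else replicate 2, 4 or 5 of WT, removed it, at differences of 0.69 to 0.83 and adjusted p of up to 0.118. It was also lost without the intensity trend and in a fit of the compared groups alone. In Isl1-KO the difference of 0.42 did not pass (95% interval -0.23 to 1.07, limma adjusted p = 0.402).

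Socs2, the gene of a related inhibitor known to restrain growth hormone signalling in mice, rose in Ldb1-KO and missed the threshold in Isl1-KO. In Ldb1-KO its level ranged from 8.6 to 9.59 with a median of 9.26. Isl1-KO replicates 1 to 5 had 8.96, 8.85, 8.85, 9.35 and 9.20, and WT replicates 1 to 5 had 8.42, 8.58, 8.86, 8.69 and 8.45. All knockout libraries lay above the WT mean, and both groups overlapped WT at their lower ends. The difference was 0.61 or 1.52-fold in Ldb1-KO (SE 0.15, limma adjusted p = 0.00386). In Isl1-KO it was 0.44 (SE 0.16, limma adjusted p = 0.0662), with an adjusted p of 0.0498 without WT replicate 3 and 0.0472 in a fit of the compared groups alone. WT replicate 3 was the highest of WT, so leaving it out was bound to widen the difference.

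**Figure D4:**
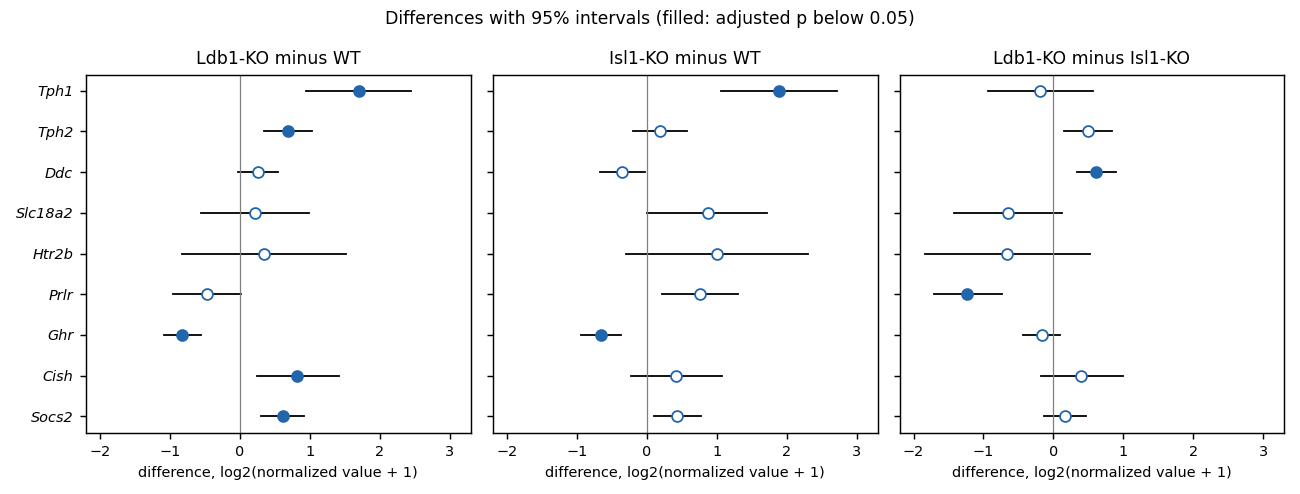
Differences of the 9 tested genes for Ldb1-KO minus WT, Isl1-KO minus WT and Ldb1-KO minus Isl1-KO on the log2(normalized value + 1) scale, with 95% intervals from limma and filled points for calls at an adjusted p under 0.05. Tph1 lies to the right of 0 and Ghr to the left in both comparisons with WT, and Prlr and Ddc are the filled points in the comparison of the knockouts.

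Within the Ldb1-KO group, Cish and Ghr were the genes whose Pearson correlation with sequencing depth passed after adjustment. Over the 8 libraries Cish and the value per read step, which is smaller in deeper libraries, had a Pearson r of -0.89 (exact permutation p = 0.00193, adjusted p = 0.0193 over 10 relations with depth) and a Spearman rho of -0.93 (exact permutation p = 0.00223, adjusted p = 0.0223). Without the 2 libraries farthest from the median depth r was -0.73. For Ghr r was 0.89 (exact permutation p = 0.00454, adjusted p = 0.0227) and rho 0.81 (exact permutation p = 0.0218, adjusted p = 0.0726), with an r of 0.84 without the 2 libraries. Other genes leaned with depth and did not pass. Ddc had an r of -0.77 and Slc18a2 of 0.74 (exact permutation p = 0.0299 and 0.0364, adjusted p = 0.0909 each). Tph2 had a rho of -0.81 (exact permutation p = 0.0218, adjusted p = 0.0726) and an r of -0.67. With depth as a term of the fit, Cish differed between Ldb1-KO and WT by 0.90 (SE 0.25, limma adjusted p = 0.0104) and Ghr by -0.85 (SE 0.11, limma adjusted p = 1.92e-06). In that fit Tph2 differed by 0.72 (SE 0.16, limma adjusted p = 0.00124). The WT libraries held 5 points and were given no correlation.

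**Figure D5:**
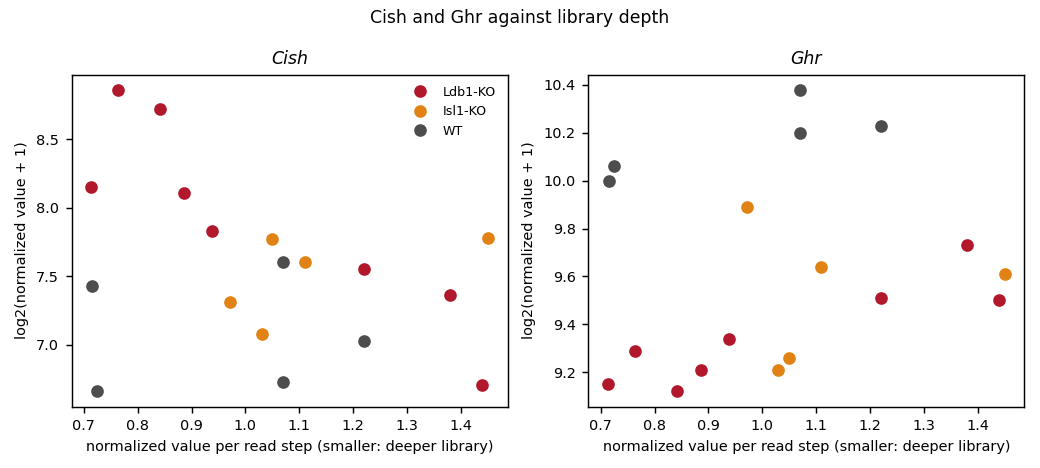
Cish and Ghr levels, as log2(normalized value + 1), against the normalized value per read step of each library, where smaller means deeper, for Ldb1-KO (n = 8), Isl1-KO (n = 5) and WT (n = 5). Among the Ldb1-KO points Cish is higher and Ghr lower in the deeper libraries, and the Ghr points of WT lie above all others at every depth.

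STAT5 is known to bind the palindrome TTCNNNGAA, and windows around the start sites of the described genes were searched for the letters of that motif. Only windows that held a match are shown. RefSeq windows of 300 bases, from 250 before to 50 after an annotated start on GRCm38.p6, were at hand for 9 of the 10 genes, 15 windows in all. Socs2 was the gene without a window. The motif reads the same on both strands. It was found in 1 window of Cish and 1 of 3 windows of Prlr, shown here with the motif in capitals, and in none of the windows of Tph1, Tph2, Ddc, Slc18a2, Htr1d, Htr2b and Ghr. The Cish window is chr9:107296409-107296708 and the Prlr window is chr15:10223656-10223955, both on the plus strand.
Cish: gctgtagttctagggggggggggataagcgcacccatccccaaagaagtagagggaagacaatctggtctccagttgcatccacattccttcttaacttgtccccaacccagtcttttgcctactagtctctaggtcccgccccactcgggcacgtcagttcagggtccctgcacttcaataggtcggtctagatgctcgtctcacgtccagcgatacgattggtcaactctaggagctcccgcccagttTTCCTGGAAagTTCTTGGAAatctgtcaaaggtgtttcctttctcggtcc
Prlr: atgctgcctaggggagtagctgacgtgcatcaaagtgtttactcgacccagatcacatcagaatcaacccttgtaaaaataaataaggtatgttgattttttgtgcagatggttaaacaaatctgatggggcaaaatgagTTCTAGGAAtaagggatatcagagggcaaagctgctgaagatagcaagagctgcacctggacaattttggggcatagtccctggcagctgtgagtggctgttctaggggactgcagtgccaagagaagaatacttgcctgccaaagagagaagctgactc
In Cish 2 matches begin at bases 1 and 12 of the annotated transcript, and in Prlr 1 match begins 110 bases before the start. Of 32851 windows of the same length, 8.30% hold TTCNNNGAA. The stricter palindrome TTCCNGGAA, a special case of TTCNNNGAA that is in 1.15% of windows, matched the first Cish motif alone. A match of letters does not show that STAT5 binds there.

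Of 27 listed kinase, transcription factor, inhibitor and hormone genes of lactogen and growth hormone signalling 19 were tested. In Ldb1-KO 2 rose and 3 fell with a median difference of -0.15, near the share of 21.7% called over all tested genes, whose median was -0.013. In Isl1-KO 1 rose and 4 fell with a median of -0.03, where 15.4% of all tested genes were called and their median was -0.029. Jak2, the kinase gene of both receptors, averaged 8.41 ± 0.34 in Ldb1-KO (SD, n = 8) and 8.39 ± 0.16 in Isl1-KO (SD, n = 5), against 8.13 ± 0.31 in WT (SD, n = 5), and did not pass in either (limma adjusted p = 0.227 and 0.349). Stat5b had 7.59 ± 0.34, 7.65 ± 0.20 and 8.05 ± 0.39 in Ldb1-KO, Isl1-KO and WT, and it too did not pass (limma adjusted p = 0.0567 and 0.154). Stat5a fell in Isl1-KO by 0.87 (SE 0.26, limma adjusted p = 0.0246), a call lost without Isl1-KO replicate 4 or without WT replicate 1, 2 or 5. Jak1, a kinase gene of cytokine receptors, fell by 0.97 in Ldb1-KO and 0.62 in Isl1-KO (SE 0.10 and 0.11). Socs3, an inhibitor gene of cytokine signals, rose by 0.70 and 0.96 (SE 0.18 and 0.20), and the Isl1-KO rise was lost without replicates 1 to 3 together. Ptpn11, a phosphatase gene, fell by 0.56 in Ldb1-KO (SE 0.10). Its Isl1-KO difference of -0.31 held in 1 of the 10 fits without 1 library. Ptpn2 rose by 0.51 in Ldb1-KO, which, like the Ldb1-KO rise of Socs3, was not called in the authors' deposited table. Stat3 fell by 0.38 in Ldb1-KO, though not without WT replicate 1 or 5, and Pias3 fell by 0.70 in Isl1-KO, though not without replicates 1 to 3 together. The count for Isl1-KO was 3, in place of 5, without Isl1-KO replicate 4 or WT replicate 1, 2 or 5, and 2 without Isl1-KO replicates 1 to 3.

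Of 16 listed genes known for the islet response to pregnancy or lactogens or for β-cell growth, 15 were tested. In Ldb1-KO 2 rose and 7 fell with a median difference of -0.65, where 10.6% of all tested genes rose and 11.0% fell with a median of -0.013. In Isl1-KO 2 rose and 5 fell with a median of -0.31, where 7.02% of all tested genes rose and 8.39% fell with a median of -0.029. Matn2, a matrix protein gene, averaged 5.83 ± 0.75 in Ldb1-KO (SD, n = 8) and 6.23 ± 0.24 in Isl1-KO (SD, n = 5), against 10.18 ± 0.51 in WT (SD, n = 5). Lrrc55, which encodes an auxiliary protein of potassium channels, averaged 1.19 ± 0.56 in Ldb1-KO and 3.14 ± 1.37 in Isl1-KO, against 6.89 ± 0.85 in WT, and differed between the knockouts by -1.95 (SE 0.47, limma adjusted p = 0.00712), a call lost with a pseudocount of 10. Ehhadh, a peroxisomal fatty acid enzyme gene, fell by 0.79 in Ldb1-KO and 1.09 in Isl1-KO (SE 0.22 and 0.24). Tnfrsf11b, which encodes osteoprotegerin, fell by 1.38 in Isl1-KO (SE 0.29, limma adjusted p = 0.00256) and was -0.65 in Ldb1-KO without passing (limma adjusted p = 0.0866). The Isl1-KO falls of Ehhadh and Tnfrsf11b were lost without replicates 1 to 3, and the Isl1-KO count was then 4 in place of 7.

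The glucose transporter gene Slc2a2, a marker of mature β-cells as well as a listed gene, fell by 4.17 in Ldb1-KO and 2.55 in Isl1-KO (SE 0.41 and 0.46). Neb, the gene of the muscle protein nebulin, rose in both, by 1.42 and 1.62 (SE 0.40 and 0.45), the second not without Isl1-KO replicate 1 or 2 or without replicates 1 to 3 together. Ivd, which serves leucine breakdown, rose by 0.78 in Ldb1-KO, while Ccnd2, a cyclin gene, and Wipi1, an autophagy gene, fell by 0.98 and 0.96. Birc5, which encodes the mitosis protein survivin, fell by 1.09 in Ldb1-KO and rose by 1.26 in Isl1-KO, and these calls held in 6 of 13 and 2 of 10 fits without 1 library. Between the knockouts Birc5 differed by -2.36 (SE 0.38, limma adjusted p = 0.00023), a difference lost without Isl1-KO replicates 1 to 3.

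Across the 18 libraries, and among 8694 genes with a mean log2 value of at least 5, the genes whose levels were most like those of Tph1 were Oat, Gpx3 and 2610018G03Rik, with Pearson r of 0.917, 0.913 and 0.91. For Prlr they were Senp1, Stk32a and Sec24a, at 0.92, 0.918 and 0.914. For Cish they were Marveld3, Ap2s1 and Smyd3, at 0.842, 0.832 and 0.826. These values describe 18 libraries that share normalization and group differences.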

How the data were processed

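For each gene symbol, the table deposited by the authors holds a log2 value per library. The normalization is not stated. A common top value, 18.29, in all libraries points to quantile-like scaling before a log2 of the value plus 1. It also gives the authors' log2 fold changes, p-values and FDRs. HOMER and build mm9 are among the names in the submitters' processing notes, with no role given. The sources used here do not name an aligner. Groups came from the sample titles, and 0 columns of per-sample values were left unused. The members, lists and tests were chosen with earlier results of these data known. Genes whose mean over libraries reached 1 on the linear scale were kept, 13501 of 21913, and log2(value + 1) was fitted in limma 3.58.1 (R 4.3.3, statmod 1.5.0; intensity trend, robust settings) over 18 libraries with Benjamini-Hochberg adjustment. The fit was tested on simulated data. The value per read step is the 20th distinct value of a library divided by 20. Without counts, no interval from depth is given. Named genes are the 10 members, the deleted genes, genes of the pathway lists that passed in any comparison, and the 3 genes most like Tph1, Prlr and Cish. Jak2, Stat5b, Htr7, Slc6a4 and marker genes outside the pathway lists were named after their values were seen. Alternatives were other pseudocounts and filters, each library left out, Isl1-KO replicates 1 to 3 or 4 and 5 left out, a replicate block, a depth term, other limma settings and the authors' test. A gene of the lists that is counted but not named is not reported here. Deposited peak lists on mm9 and the input sample were not used here.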

Additional observations from a re-analysis of the deposited data

Results flagged for a closer look

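Ddc and Prlr differed between the knockouts themselves, which flagged both for a closer look. Prlr was -1.23 in Ldb1-KO relative to Isl1-KO, with every Ldb1-KO library below the Isl1-KO mean, and Ddc was 0.61, with every Ldb1-KO library above the Isl1-KO mean. Age and tamoxifen dose differ between these groups along with genotype and cannot be told apart from it. No library stood apart within its group by Dixon's criterion in 27 combinations of gene and group, where chance gives about 1 in 20.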

How the results depend on the processing

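Of the 9 tested genes 5 were called in Ldb1-KO against WT and 4 to 6 when 1 library was left out. For Isl1-KO against WT 2 were called, 2 to 3 with 1 library left out, 5 with Isl1-KO replicates 4 and 5 left out together, and 4 with the compared groups alone in the fit. Between the knockouts 2 were called, 2 to 3 with 1 library left out, and 0 in limma with Isl1-KO replicates 1 to 3 left out, where 2 had an unadjusted p under 0.05 and 2 libraries remain in that group; the authors' deposited table calls 2 with all libraries. The cause was not tested. Replicate numbers are shared across groups, but only 4 of 15 same-numbered pairs of libraries had deviations correlated above 0.1, and a library correlated best with its own number in 4 of 30 cases, so the numbers were not taken as pairs. With the replicate block 4 genes were called in Ldb1-KO, 4 in Isl1-KO and 2 between the knockouts. In the block fit Cish in Ldb1-KO was 0.42 (limma adjusted p = 0.259), and Prlr and Socs2 passed in Isl1-KO. The lactogen and growth hormone signalling list had 8 calls in Ldb1-KO with the block, against 5 without it. The Ldb1-KO and Isl1-KO calls of Neb and the Ldb1-KO call of Maoa were also lost with the block. No called difference of the members changed sign. Of those that were not called, Slc18a2 in Ldb1-KO against WT ran from -0.01, without WT replicate 1, to 0.50 when 1 library was left out, and Htr2b there from -0.11, without WT replicate 5, to 0.64. Without Isl1-KO replicates 4 and 5, Tph2 in Isl1-KO against WT was -0.06 and Tph1 in Ldb1-KO against Isl1-KO was 0.39. With 1 library left out that Tph1 difference ran from -0.57 to 0.09, the highest without Isl1-KO replicate 4. Without Isl1-KO replicates 1 to 3, Htr2b in Isl1-KO against WT was -0.32, and between the knockouts Htr2b was 0.66, Ghr 0.12 and Socs2 -0.07. The peak alternatives were not run, since no mm9 gene annotation was used here. Without counts, depth limits most what can be said of Htr1d, Htr2b and Slc18a2.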

Other observations

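The residual level of Ldb1 in the Ldb1-KO libraries, 5.58 to 6.88, was set beside the 9 tested genes. None of the 9 relations passed. For Prlr Pearson r was 0.53 (exact permutation p = 0.179, adjusted p = 0.9) and Spearman rho 0.52 (exact permutation p = 0.197, adjusted p = 0.649), with an r of 0.36 without the 2 libraries farthest from the median. For Tph1 r was -0.50 (exact permutation p = 0.2, adjusted p = 0.9) and rho -0.57 (exact permutation p = 0.151, adjusted p = 0.649), with an r of -0.55 without the 2 libraries.

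Within Isl1-KO, replicates 4 and 5 had higher Tph1, Ddc, Socs2 and Tph2 and lower Prlr, Ghr and Htr2b than each of replicates 1 to 3. The share of all tested genes that separate these libraries in the same way was not computed. The separation is therefore not read as a trait of these genes. The difference of Tph1 from WT was 2.76 with replicates 1 to 3 left out and 1.31 with replicates 4 and 5 left out, and both passed (limma adjusted p = 7.26e-05 and 0.0195). Replicates 4 and 5 had the highest Tph1, so the first difference was bound to be the larger. Its size is no test of a stronger rise in these libraries. The labels give no batch that separates these libraries, and the comparison of the 5 libraries among themselves was not tested.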
